A study of Homo sapiens with 8 samples.

Results

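Solute carrier genes encode membrane transporters that move ions, metals, sugars, amino acids, nucleotides and organic acids across cellular membranes. They were taken as each gene of the deposited gene table whose symbol consists of SLC, a family number, the letter A and a member number, which gave 182 of 13471 genes. Of these, 41 belong to family 25, the mitochondrial carriers (SLC25A), and 141 belong to the other families. RNA was sequenced from hTERT-RPE1, a line of telomerase-immortalised epithelial cells of the human retinal pigment layer, with and without immunoprecipitation (IP) of hnRNP U, and the design asks which RNAs the protein enriches. The 8 libraries form 4 groups of 2. Interphase cells had spent 24 h in thymidine at 2 mM, a dose that blocks DNA synthesis, and were sequenced without IP or after IP with an anti-hnRNP U antibody. Mitotic cells received the same 24 h of 2 mM thymidine, then 6 h of release and an overnight incubation with S-trityl-L-cysteine, an inhibitor of the mitotic kinesin Eg5, and were likewise sequenced without IP or after the IP. All groups come from the same cell line, the same lysis buffer and ribosomal RNA depletion, and they differ in drug treatment as well as in phase. Precipitates of a control antibody were not analysed here, and binding by hnRNP U and carry-over on beads cannot be told apart.

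Most carriers of the plasma membrane and of organelles are proteins with several membrane-spanning helices, translated at the endoplasmic reticulum. Most mitochondrial carriers are small, encoded by nuclear genes and imported through the outer membrane translocase (TOM) and the TIM22 complex into the inner membrane, where they exchange ADP, ATP, phosphate, citrate, amino acids and iron with the matrix. hnRNP U, also called SAF-A, is an abundant nuclear protein that binds RNA and chromatin. In the retinal pigment epithelium, carriers are known for passing glucose, lactate, taurine and ions between the blood and the photoreceptors.

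Levels are given in FPKM, a fragment count divided by transcript length and library size, so levels of different genes can be compared, and a level after IP is a share of what was precipitated. Replicates of a group correlated across the 182 carriers with Pearson's r of 0.994 to 0.996 (log2 scale, genes are not independent). Relative depth, read from the steps between low values of 30 to 64 of 760 low genes, ran from 0.638 in the mitotic IP of replicate 1 to 1.19 in the mitotic IP of replicate 2, with interphase without IP of replicate 1 set to 1. All 7 listed genes of mitotic phase, such as AURKA and TTK, were higher in mitosis without IP (median log2 difference 2.35), against 26.2% of all genes. Of 15 markers of retinal pigment epithelium, 7 could be read. The transcription factors MITF, with 9.58 and 9.60 FPKM in interphase without IP, and OTX2, with 8.37 and 8.71 FPKM, were present, while PMEL and LRAT stayed below 0.5 FPKM in every library. The other 8, RPE65 and BEST1 among them, are not among the 13471 genes under these symbols, so their levels are not known here. THY1, a marker of fibroblasts and other cells, had 148 and 130.2 FPKM in interphase without IP. COL1A1, also listed as a fibroblast marker, averaged 0.634 FPKM over the 8 libraries. Tests were made with limma on log2(FPKM + 1) over all 13471 genes with 2 libraries in each group, a call is an adjusted p below 0.05, and ± gives the standard error of a log2 difference. The labels do not say that replicates were separate cultures, so the p-values measure the spread between these libraries, which may be technical. In bulk RNA, fewer cells with a transcript and less transcript per cell cannot be told apart.

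Carrier mRNAs covered more than 3 orders of magnitude, from a mean of 0.0869 FPKM to a mean of 374 FPKM over the 8 libraries. Of the 182 genes, 38 averaged below 1 FPKM, 79 reached 10 FPKM and 13 reached 50 FPKM. The median member of SLC25A averaged 11.5 FPKM, the median member of the other families 6.85 FPKM and the median of all genes 7.64 FPKM. SLC25A3, the carrier that brings phosphate into mitochondria, was the most abundant member and alone made up 27.0% to 40.8% of the summed SLC25A signal of a library. Its level was 366 and 369.9 FPKM in the replicates of interphase without IP, 311 and 360.0 FPKM after IP in that phase, 252 and 278 FPKM in mitosis without IP and 499.7 and 554 FPKM in the mitotic IP. Both mitotic IP replicates were thus above all other libraries, and both interphase IP replicates lay below those without IP, though without a call. SLC25A3 shares its interval with the small nucleolar RNA gene SNORA53, and how reads were divided between them was not tested.

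Among the other families the glutamine and neutral amino acid carriers SLC38A2 (mean 189 FPKM) and SLC38A1 (176 FPKM) led, followed by the phosphate carrier SLC20A1 (131 FPKM), the lactate exporter SLC16A3, also called MCT4 (111 FPKM), and SLC30A9, a member of the zinc carrier family (108 FPKM). SLC20A1 was the steadiest of these 5 between IP and no IP. It had 109.6 and 127 FPKM in interphase cells without IP, 113 and 125 FPKM in its IP, 145 and 142 FPKM in mitosis without IP and 145 and 142 FPKM in the mitotic IP. The IP groups of SLC20A1 overlapped with the groups without IP in each phase, and its log2 IP differences were 0.01 ± 0.12 in interphase and 0.00 ± 0.12 in mitosis (limma adjusted p = 0.937 and 0.998). By contrast, the IP groups of SLC38A1 and SLC30A9 lay above, and those of SLC16A3 below, the groups without IP in each phase. Of 12 carriers linked to the pigment epithelium 6 could be read, with 1 higher and 3 lower in the interphase IP and 2 higher and 3 lower in the mitotic IP, against 37.6% and 37% of all genes in interphase and 32.8% and 31.7% in mitosis. The higher calls were those of SLC6A6 and SLC16A1, and they ended without single libraries. For SLC6A6 these were any of the 4 interphase libraries in interphase, and mitosis replicate 2 without IP or mitotic IP replicate 1 in mitosis (limma adjusted p up to 0.127 and 0.235). For SLC16A1 they were mitosis replicate 1 without IP or mitotic IP replicate 2 (limma adjusted p up to 0.139). The glucose carrier SLC2A1 (83.9 and 74.9 FPKM in interphase without IP) and the lactate carrier SLC16A1 (22.5 and 21.03 FPKM) were abundant. The taurine carrier SLC6A6 was at 7.02 and 6.30 FPKM, and the melanosomal carrier SLC45A2 was below 0.2 FPKM in every library. SLC2A1 shares its interval with SLC2A1-AS1, and SLC16A1 with AKR7A2P1.

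**Figure D1:**
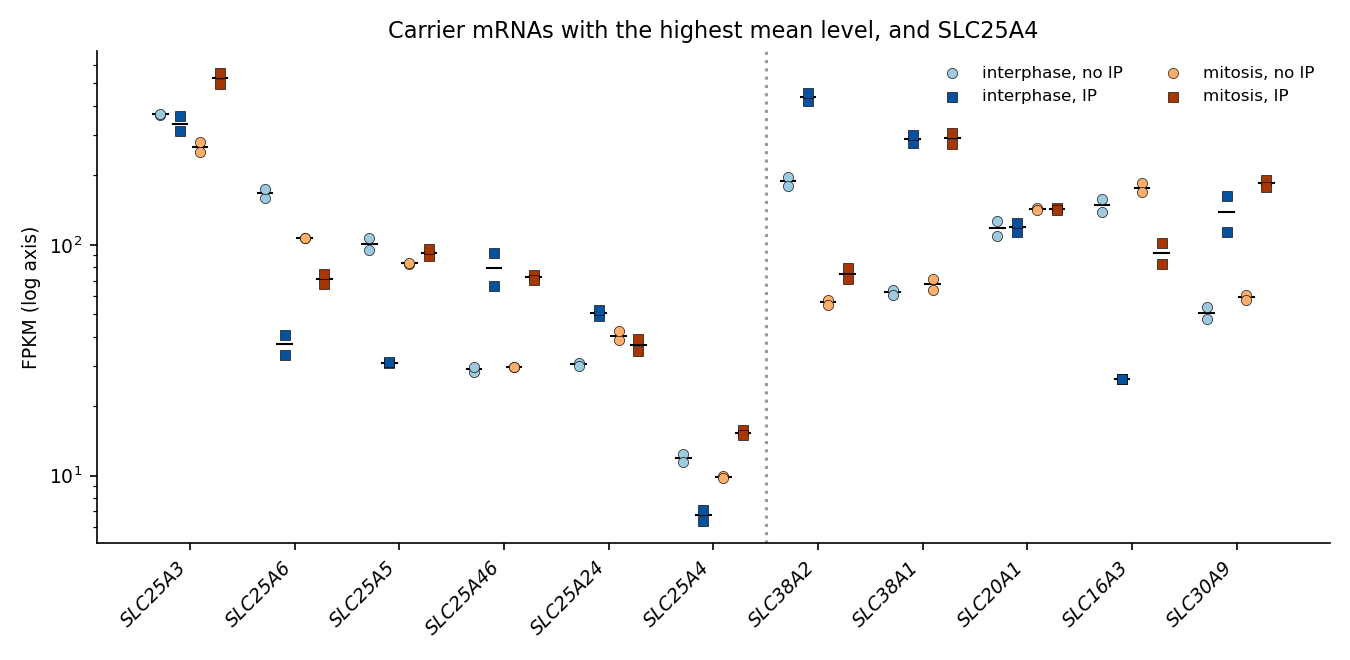
FPKM on a log axis of the 5 SLC25A and 5 other carriers with the highest mean level, with SLC25A4 added, in each of the 8 libraries; circles are libraries without IP, squares are hnRNP U IP libraries, blue is interphase, orange and brown are mitosis, and black bars are group means of 2. SLC25A5, SLC25A6 and SLC16A3 fall in the interphase IP, while SLC38A1, SLC30A9 and SLC25A46 stand above the libraries without IP in both phases.

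In interphase the hnRNP U IP split the carriers into groups of similar size rather than moving them one way. Of the 41 mitochondrial carriers, 14 were higher and 17 lower in the IP (median log2 difference -0.04), and of the 141 other carriers 52 were higher and 56 lower (median -0.09). These shares are close to those of the whole table, in which 74.6% of genes were called, 37.6% higher and 37% lower (median 0.02). The extremes were wide, from -3.10 for SLC25A39 to 2.38 for SLC36A4 on the log2 scale.

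SLC25A39 (chr17:44319625-44324870, minus strand, GRCh38), which imports glutathione into mitochondria, was the carrier most reduced in the interphase IP. It had 65.1 and 59.9 FPKM in the replicates without IP against 5.19 and 7.87 FPKM in the IP, a log2 difference of -3.10 ± 0.16 (limma adjusted p = 6.59e-07). The citrate carrier SLC25A1 had 79.3 and 70.4 FPKM without IP and 10.5 and 8.89 FPKM in the IP (-2.83 ± 0.16, limma adjusted p = 8.36e-07). The dicarboxylate carrier SLC25A10 went from 28.4 and 24.7 FPKM to 4.33 and 3.23 FPKM (-2.53 ± 0.16, limma adjusted p = 1.57e-06). In these 3 genes both IP replicates lay far below both replicates without IP, which follows largely from naming genes with the largest called differences. At the other end, SLC25A36 (chr3:140941830-140980961, plus strand), a mitochondrial pyrimidine nucleotide carrier, had 9.48 and 12.1 FPKM without IP and 50.1 and 59.1 FPKM in the IP (2.24 ± 0.13, limma adjusted p = 1.09e-06). SLC25A51, which carries NAD into mitochondria, had 22.7 and 24.5 FPKM without IP and 62.9 and 71.8 FPKM in the IP (1.47 ± 0.11, limma adjusted p = 2.99e-06). SLC25A40, a close relative of SLC25A39, moved the opposite way to it, from 7.26 and 7.84 FPKM without IP to 22.8 and 22.2 FPKM in the IP (1.46 ± 0.15, limma adjusted p = 2.05e-05). The groups of these 3 genes, named in the same way, did not overlap either, with the IP above. SLC25A40 shares its interval with DBF4.

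Outside the mitochondrial family, the amino acid carrier SLC36A4 had the largest increase in the interphase IP, from 8.75 and 8.39 FPKM without IP to 46.9 and 50.5 FPKM (2.38 ± 0.09, limma adjusted p = 2.68e-07). SLC38A1 (chr12:46183063-46270017, minus strand), which takes up glutamine, rose from 63.8 and 60.8 FPKM to 275 and 299 FPKM (2.19 ± 0.12, limma adjusted p = 9.49e-07). The monocarboxylate carrier SLC16A7 (2.13 ± 0.10), the zinc carrier SLC30A4 (2.12 ± 0.11) and SLC7A11, the cystine importer of glutathione synthesis (2.03 ± 0.14), followed, with adjusted p of 4.62e-07, 7.34e-07 and 2.07e-06 by limma. All 5 had both IP replicates above both replicates without IP, which follows largely from naming genes with the largest called differences. The largest reduction was that of SLC52A2, a riboflavin carrier, with 33.3 and 26.5 FPKM without IP and 3.49 and 3.09 FPKM in the IP (-2.84 ± 0.15, limma adjusted p = 7.33e-07). SLC16A3 (chr17:82228397-82261129, plus strand), which releases lactate from glycolytic cells, had 139 and 158 FPKM without IP and 26.1 and 26.1 FPKM in the IP (-2.46 ± 0.13, limma adjusted p = 7.52e-07). The zinc carrier SLC39A3 (-2.35 ± 0.13), SLC10A3 of the bile acid carrier family (-2.29 ± 0.15) and the nucleoside carrier SLC29A1 (-2.11 ± 0.15) completed the lower end, with adjusted p of 7.69e-07, 1.66e-06 and 3.08e-06 by limma. Here the IP replicates lay below the replicates without IP in all 5 genes, which were named in the same way.

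Carriers at the ends of this range differ in base composition, which can be read in the 90 central bases of their coding sequences (GENCODE release 29 transcripts, GRCh38, 5′ to 3′, with each G and C in capitals). SLC25A36 and SLC38A1 were raised by the IP, and SLC25A39 and SLC16A3 were lowered. G and C make up 45.6%, 35.6%, 65.6% and 66.7% of the stretches, in that order.
SLC25A36: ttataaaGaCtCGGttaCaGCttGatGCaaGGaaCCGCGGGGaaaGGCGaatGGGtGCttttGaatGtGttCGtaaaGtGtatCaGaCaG
SLC38A1: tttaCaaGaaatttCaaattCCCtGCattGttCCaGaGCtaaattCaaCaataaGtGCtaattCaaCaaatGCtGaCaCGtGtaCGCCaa
SLC25A39: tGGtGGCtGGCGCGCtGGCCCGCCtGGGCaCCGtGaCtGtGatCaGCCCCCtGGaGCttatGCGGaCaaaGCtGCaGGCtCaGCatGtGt
SLC16A3: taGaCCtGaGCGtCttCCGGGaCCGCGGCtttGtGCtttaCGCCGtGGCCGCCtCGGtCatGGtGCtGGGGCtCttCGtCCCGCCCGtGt
Across all members the same property moved with the IP difference. Of the 66 carriers whose longest transcript holds less than 45% G and C, 55 were higher in the interphase IP and 0 were lower by limma. Of the 62 with 55% or more, 0 were higher and 52 lower. In the SLC25A family these counts were 10 higher of 13 members below 45% and 11 lower of 14 members at 55% or more. The whole table showed the same order, with 3725 higher and 464 lower of 5237 genes below 45%, and 74 higher and 2844 lower of 3515 genes at 55% or more. Spearman's rho between GC content and the interphase log2 difference was -0.76 across SLC25A, -0.87 across the other carriers and -0.71 across all genes, and with transcript length it was 0.40, 0.51 and 0.53. These correlations are over genes of the same libraries and are given as a description, and the part of base composition or length in the IP differences was not tested.

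**Figure D2:**
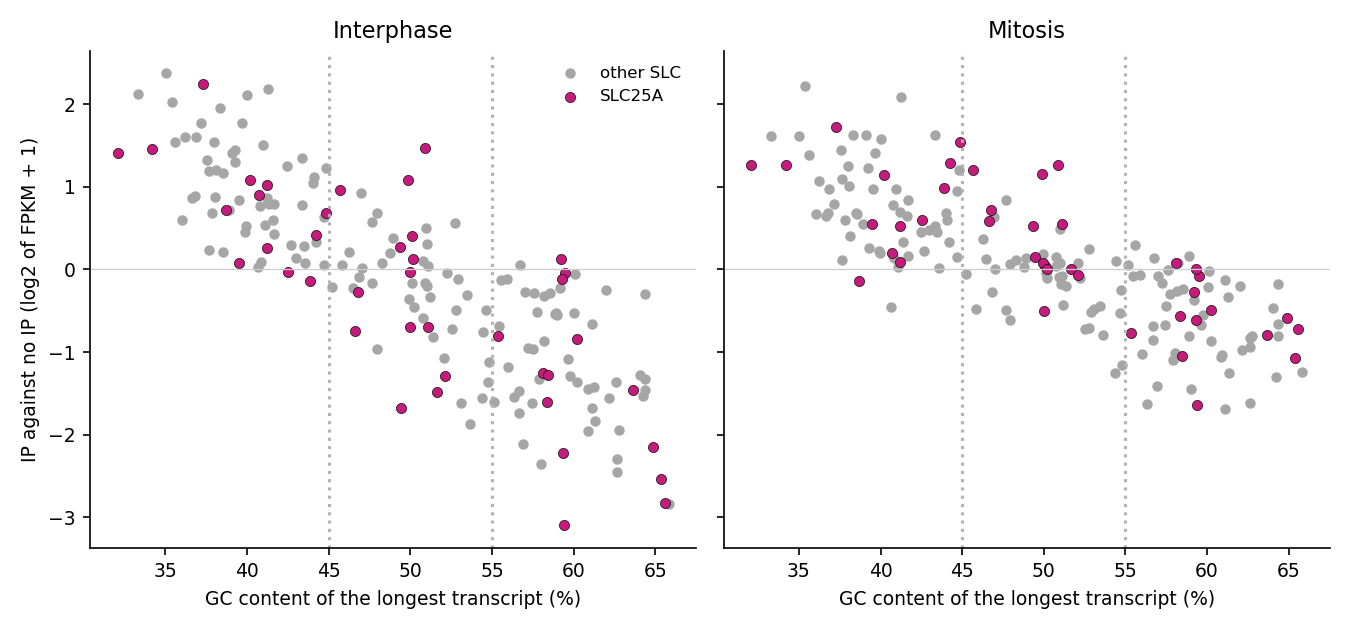
Log2 difference between IP and no IP (FPKM + 1) against the GC content in percent of the longest annotated transcript, for interphase (left) and mitosis (right); pink points are the 41 SLC25A genes, grey points the 141 other carriers, and dotted lines mark 45% and 55%. In interphase 55 of the 66 carriers left of the first line were called higher in the IP and 52 of the 62 right of the second line were called lower.

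When the trend of each library with transcript length and GC content was removed before the fit, the interphase calls became 11 higher and 20 lower in SLC25A and 24 higher and 54 lower in the other families, against 26.3% higher and 33.8% lower among 13119 annotated genes. SLC25A51 then had the largest positive difference of all carriers, 2.21 (limma adjusted p = 1.12e-06), and SLC25A39 the largest negative one, -1.84 (limma adjusted p = 3.51e-05). Other calls remained with smaller differences. SLC25A36 went from 2.24 to 0.96 (limma adjusted p = 0.000156), SLC36A4 from 2.38 to 0.98 (limma adjusted p = 3.87e-05) and SLC38A1 from 2.19 to 0.98 (limma adjusted p = 7.11e-05). SLC25A1 went from -2.83 to -1.18 (limma adjusted p = 9.92e-05), and SLC16A3 from -2.46 to -1.77 (limma adjusted p = 1.04e-05). The call of SLC25A40 ended, at 0.27 (limma adjusted p = 0.105). Length and GC content here are those of the longest annotated transcript, and whether it is the form present in these cells was not tested. For SLC25A51 that transcript has 1871 bases. Its annotated gene starts at 37879400, while its interval in the gene table starts at 37877574. With each library centred on its median instead, the median of all genes moved by 0.125 in interphase, and the counts were 15 higher and 17 lower in SLC25A and 57 higher and 49 lower in the other families. Of all genes 42.9% were then higher and 33.4% lower.

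In mitosis the IP again divided the carriers, with more SLC25A genes higher than lower. Of its 41 members, 17 were higher and 11 lower in the IP (median log2 difference 0.08), and of the other 141 carriers 46 were higher and 46 lower (median 0.04). Of all genes 64.5% were called, 32.8% higher and 31.7% lower (median 0.01). With length and GC trends removed the SLC25A counts were 18 higher and 7 lower, against 32.0% higher and 29.8% lower among 13119 annotated genes. Across all 182 carriers, 51 were called higher by the IP in both phases and 51 were called lower in both. Among all 13471 genes, 3345 were higher in both phases and 3100 lower in both. No carrier, 0 of 182, switched from higher to lower between the interphase and the mitotic IP, and 2 switched from lower to higher. Over all genes 502 switched the first way and 333 the second.

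Several carriers kept a strong IP difference in mitosis. SLC7A11 had 12.8 and 11.5 FPKM in the replicates without IP and 67.96 and 53.5 FPKM in the IP, a log2 difference of 2.22 ± 0.14 (limma adjusted p = 7.31e-06). SLC38A1 had 63.7 and 71 FPKM without IP and 274 and 305 FPKM in the IP (2.09 ± 0.12, limma adjusted p = 7.09e-06). Both IP replicates of each gene exceeded both replicates without IP, which follows largely from naming genes with the largest called differences. Next came SLC39A9, a zinc carrier (1.63 ± 0.11), SLC5A3, which takes up the osmolyte myo-inositol (1.63 ± 0.12), and SLC30A9 (1.63 ± 0.17), with adjusted p of 9.21e-06, 9.99e-06 and 4.53e-05 by limma. SLC5A3 shares its interval with MRPS6. In the mitochondrial family SLC25A36 was again the highest, with 12.6 and 13.6 FPKM without IP and 44.7 and 46.7 FPKM in the IP (1.73 ± 0.13, limma adjusted p = 1.23e-05). The aspartate-glutamate carriers SLC25A13, with 18.6 and 17.2 FPKM without IP and 55.2 and 52.96 FPKM in the IP (1.54 ± 0.09, limma adjusted p = 7.30e-06), and SLC25A12 (1.29 ± 0.12, limma adjusted p = 3.50e-05) followed it. These exchange aspartate for glutamate in the malate-aspartate shuttle. Neither overlapped between IP and no IP in mitosis, and both were named for the size of that difference.

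Among the carriers most reduced in the mitotic IP, 3 mitochondrial and 4 other genes are described here, whose transcripts hold 56.3% to 65.4% G and C. SLC25A39 had 71.4 and 61.95 FPKM without IP and 20.7 and 20.7 FPKM in the IP (-1.64 ± 0.16, limma adjusted p = 3.77e-05), SLC25A10 was at -1.07 ± 0.16 (limma adjusted p = 0.000392) and SLC25A23, an ATP-magnesium/phosphate carrier, at -1.05 ± 0.13 (limma adjusted p = 0.000146). SLC7A5, the large neutral amino acid carrier LAT1, had 56.5 and 33.7 FPKM without IP and 16.5 and 10.01 FPKM in the IP (-1.69 ± 0.27, limma adjusted p = 0.000548). The replicates of SLC7A5 without IP lay farther apart than those of most carriers, yet both stayed above both IP replicates. The choline carrier SLC44A2 (-1.63 ± 0.14), SLC10A3 (-1.62 ± 0.15) and SLC29A1 (-1.41 ± 0.15) were also at the lower end, with adjusted p of 2.12e-05, 2.57e-05 and 6.18e-05 by limma. Once length and GC trends were removed, the call of SLC25A10 ended, at -0.33 (limma adjusted p = 0.0571), and the other 6 of these genes were still called lower.

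**Figure D3:**
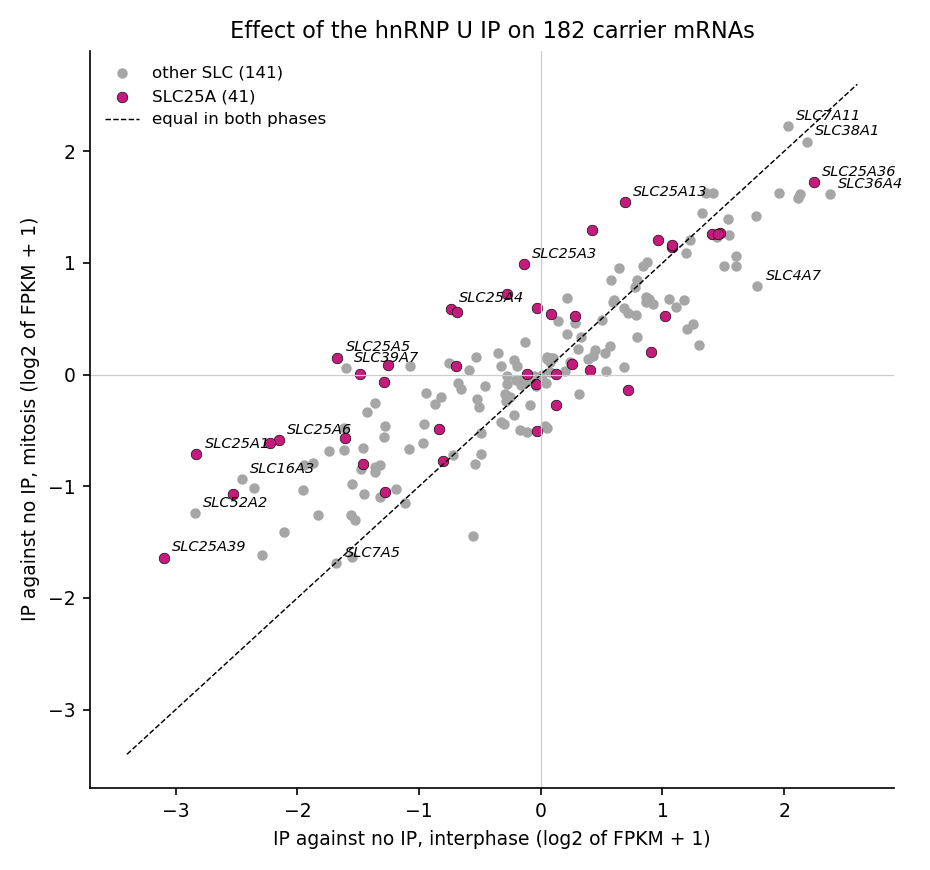
Log2 difference between IP and no IP (FPKM + 1) in mitosis against that in interphase for the 182 carriers, with the 41 SLC25A genes in pink, the 141 others in grey, and a dashed line where the phases would be equal. Points above the dashed line had a larger IP difference in mitosis, among them SLC25A4, which is at -0.74 in interphase and 0.59 in mitosis.

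The difference between the IP effects of the phases was tested gene by gene as an interaction, and it was positive in more of the mitochondrial carriers than negative. Of 41 SLC25A genes, 20 had a larger log2 IP difference in mitosis and 4 a smaller one (48.8% and 9.76%, median 0.35). Of the 141 other carriers, 33 had a larger and 15 a smaller one (23.4% and 10.6%, median 0.06), and of all genes 47.1% were called, 27.2% larger and 19.9% smaller (median 0.07). The families were not compared by a test, since genes of a list are not replicates. With length and GC trends removed the counts were 22 larger and 4 smaller in SLC25A (median 0.47). The others had 34 larger and 6 smaller (median 0.24), against 27.2% and 16.5% of all annotated genes (median 0.12). Quantile normalization gave 19 and 5 in SLC25A, but 28 and 21 in the others, with medians of 0.30 and -0.01, and 23.8% and 24.9% in the whole table. Without interphase IP replicate 2, interphase replicate 1 without IP or mitosis replicate 1 without IP, SLC25A had 2 smaller members instead of 4, and the other families had 9 without interphase IP replicate 2 and 8 without interphase replicate 2 without IP.

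Split by GC content, at 55% or more 8 of 14 SLC25A genes and 25 of 48 other carriers had a larger IP difference in mitosis, against 1696 of 3515 genes of the table. Between 45% and 55%, 7 of 14 SLC25A genes were larger and 0 smaller (median 0.51), against 8 of 40 larger and 2 smaller in the others (median 0.02), and of all genes 29.4% were larger and 18.1% smaller (median 0.10). Below 45%, 5 of 13 SLC25A genes were larger and 4 smaller, while 0 of 53 other carriers were larger and 12 were smaller, and of all genes 11.9% were larger and 31.5% smaller. The median longest transcript of SLC25A genes has 2979 bases against 4348 in the other families, and the median coding sequence 945 against 1623.

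The 3 ADP/ATP carriers, which exchange ATP made in mitochondria for cytosolic ADP, all moved this way. SLC25A5 (chrX:119468400-119471319, plus strand), the form of proliferating cells, had 107 and 94.7 FPKM in interphase cells without IP, 30.8 and 30.98 FPKM in its IP, 82.5 and 83.6 FPKM in mitosis without IP and 89.6 and 95.5 FPKM in the mitotic IP. SLC25A6 (chrX:1386152-1392724, minus strand) had 160.3 and 175, 33.3 and 40.8, 107 and 107 and 67.7 and 74.8 FPKM in the same groups. SLC25A4 (chr4:185143241-185150382, plus strand), the form known from heart and muscle, was far lower, with 12.4 and 11.4, 7.11 and 6.36, 9.93 and 9.80 and 15.7 and 15.03 FPKM. In interphase the IP lay below no IP for all 3, whereas in mitosis it was below for SLC25A6, above for SLC25A4 and above without a call for SLC25A5. The log2 IP difference of SLC25A5 was -1.67 ± 0.10 (limma adjusted p = 1.41e-06) in interphase and 0.15 ± 0.10 (limma adjusted p = 0.225) in mitosis, so that the interaction was 1.83 ± 0.15 (limma adjusted p = 6.95e-05). For SLC25A6 the differences were -2.15 ± 0.13 and -0.58 ± 0.13, with an interaction of 1.57 ± 0.18 (limma adjusted p = 0.000227). For SLC25A4 they were -0.74 ± 0.10 and 0.59 ± 0.10, with an interaction of 1.33 ± 0.15 (limma adjusted p = 0.000211). In the fit without length and GC trends, the interactions remained calls, at 1.22 (limma adjusted p = 0.000421), 0.82 (limma adjusted p = 0.0118) and 1.60 (limma adjusted p = 0.000198), though the mitotic difference of SLC25A6 became 0.13 (limma adjusted p = 0.452).

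The 3 genes are near relatives, and their coding sequences of 894 bases are identical at 77.2% (SLC25A4 and SLC25A5) to 78.7% (SLC25A5 and SLC25A6) of positions. The central 90 coding bases, 403 to 492, are shown with capitals where the 3 differ (GENCODE release 29, GRCh38, 5′ to 3′). Whether reads of the 3 genes were told apart was not tested.
SLC25A4: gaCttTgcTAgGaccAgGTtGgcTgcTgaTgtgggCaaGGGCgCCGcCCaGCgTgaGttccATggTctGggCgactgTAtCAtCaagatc
SLC25A5: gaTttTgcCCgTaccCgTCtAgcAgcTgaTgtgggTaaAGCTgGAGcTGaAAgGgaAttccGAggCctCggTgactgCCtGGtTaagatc
SLC25A6: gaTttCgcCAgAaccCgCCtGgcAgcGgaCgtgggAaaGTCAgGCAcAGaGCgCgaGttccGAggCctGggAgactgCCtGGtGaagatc
They differ at 36 of these 90 positions, and the longest run shared by any 2 of the coding sequences is 29 bases. Copies of these genes elsewhere in the genome, such as processed pseudogenes, were not examined, and the treatment of reads that match several places is not given in the sources used here. SLC25A5 also shares its interval with SLC25A5-AS1. Of the summed signal of the 3 genes, SLC25A6 held 57.3% and 62.2% in interphase without IP and 39.2% and 40.3% in the mitotic IP, while SLC25A5 held 38.2% and 33.7% and then 51.8% and 51.6%. The order of the 2 genes was thus reversed between those groups, and SLC25A4 stayed at 4.07% to 9.99% of the sum in the 8 libraries.

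Other mitochondrial carriers gave the largest interactions of the family with SLC25A5. SLC25A1 had 35.2 and 28.4 FPKM in mitosis without IP and 21.6 and 16.5 FPKM in the mitotic IP, so that its log2 difference of -2.83 in interphase was -0.71 in mitosis (interaction 2.12 ± 0.22, limma adjusted p = 0.000166). SLC25A11, the oxoglutarate carrier, had 28.03 and 29.8 FPKM in interphase cells without IP, 5.36 and 5.47 FPKM in its IP, 18.9 and 22.5 FPKM in mitosis without IP and 12.6 and 13.7 FPKM in its IP (interaction 1.60 ± 0.16, limma adjusted p = 0.000124). The IP stayed below no IP in both phases for these 2 genes, with a narrower gap in mitosis. With length and GC trends removed, the mitotic differences of SLC25A1 and SLC25A11 were 0.07 (limma adjusted p = 0.665) and -0.02 (limma adjusted p = 0.894). SLC25A3, whose levels are given above, was at -0.14 ± 0.17 (limma adjusted p = 0.484) in interphase and 0.99 ± 0.17 (limma adjusted p = 0.000859) in mitosis, with an interaction of 1.13 ± 0.24 (limma adjusted p = 0.00504). Quantile normalization ended that interaction call, at 0.74 (limma adjusted p = 0.141), and with length and GC trends removed the interphase difference was -1.02 (limma adjusted p = 0.00014) and the interaction 1.63 (limma adjusted p = 0.000311). The longest transcript of SLC25A3, used for these trends, has 6087 bases. Its annotated gene ends at 98606379, past the end of its interval in the gene table at 98602000. SLC25A20, the carnitine-acylcarnitine carrier of fatty acid oxidation, was singled out after its values were seen, as the only carrier besides SLC25A4 that was lower in the interphase IP and higher in the mitotic IP. It had 3.44 and 3.39 FPKM and 1.77 and 1.69 FPKM in interphase without and with IP, and 3.41 and 2.21 FPKM and 4.45 and 4.61 FPKM in mitosis (interaction 1.25 ± 0.22, limma adjusted p = 0.00175). Its interphase difference was 0.07 (limma adjusted p = 0.719) with length and GC trends removed, and its mitotic call ended without mitosis replicate 2 without IP, at 0.33 (limma adjusted p = 0.0852).

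The carriers with a smaller IP difference in mitosis were fewer. SLC25A24, another ATP-magnesium/phosphate carrier, had 30.9 and 29.9 FPKM in interphase cells without IP, 49.1 and 52.1 FPKM in its IP, 38.6 and 42.2 FPKM in mitosis without IP and 34.5 and 38.9 FPKM in its IP (interaction -0.85 ± 0.14, limma adjusted p = 0.00159). Its IP replicates were above no IP in interphase and overlapped with it in mitosis. SLC25A30 was at -0.71 ± 0.18 (limma adjusted p = 0.012) and SLC25A36 at -0.52 ± 0.19 (limma adjusted p = 0.0483). The call of SLC25A36 ended without any of 6 of the 8 libraries, with adjusted p from 0.0757 to 0.17 in limma, and with a pseudocount of 0.1 (adjusted p = 0.0504). After removal of length and GC trends SLC25A30 stood at -0.14 (limma adjusted p = 0.522) and SLC25A36 at 0.09 (limma adjusted p = 0.697), while SLC25A24 kept its interaction call at -0.40 (limma adjusted p = 0.0273) with an interphase difference of -0.32 (limma adjusted p = 0.012), opposite in sign to the one above.

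In the other families SLC39A7, a zinc carrier of the endoplasmic reticulum, had the largest interaction. Its levels were 59.4 and 58.6 FPKM in interphase cells without IP, 19.8 and 17.9 FPKM in its IP, 45.1 and 44.2 FPKM in mitosis without IP and 46.8 and 46.4 FPKM in its IP, and the interaction was 1.66 ± 0.13 (limma adjusted p = 6.60e-05). The interphase groups were far apart and the mitotic groups differed by less than 3 FPKM, with the IP slightly above. SLC39A7 shares its interval with RXRB. SLC52A2 (1.60 ± 0.22), SLC16A3 (1.52 ± 0.19), SLC39A3 (1.33 ± 0.18) and the sugar carrier SLC50A1 (1.15 ± 0.15) came next, with adjusted p of 0.000507, 0.000344, 0.000524 and 0.000374 by limma. SLC16A3 had 184 and 169 FPKM in mitosis without IP and 102 and 82.3 FPKM in the mitotic IP, which remained lower but by less than in interphase. These 5 interactions were also called with length and GC trends removed, from 0.45 for SLC50A1 to 1.36 for SLC16A3.

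At the opposite end, 2 bicarbonate carriers came first. Of the 6 SLC4A genes, 0 had a larger and 2 a smaller IP difference in mitosis (median 0.004), against 27.2% and 19.9% of all genes. SLC4A4, a sodium-bicarbonate cotransporter known from the pigment epithelium, had 2.44 and 1.85 FPKM in interphase cells without IP, 6.22 and 7.26 FPKM in its IP, 1.78 and 1.35 FPKM in mitosis without IP and 2.31 and 1.84 FPKM in its IP (interaction -1.04 ± 0.22, limma adjusted p = 0.00439). SLC4A7, another sodium-bicarbonate cotransporter, had 18.9 and 19.4, 64.6 and 71.8, 41.9 and 41.3 and 74.4 and 71.3 FPKM in the same order (interaction -0.98 ± 0.14, limma adjusted p = 0.000558). For SLC4A7 the IP was above no IP in both phases, and for SLC4A4 the mitotic IP replicates also lay above those without IP but without a call. SLC38A2 was at -0.80 ± 0.17 and the iron exporter SLC40A1, ferroportin, at -0.80 ± 0.20, with adjusted p of 0.00547 and 0.00957 by limma. With length and GC trends removed the interactions of SLC4A4, SLC4A7 and SLC38A2 were no longer called, at -0.37 (limma adjusted p = 0.185), -0.28 (limma adjusted p = 0.101) and -0.28 (limma adjusted p = 0.191).

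**Figure D4:**
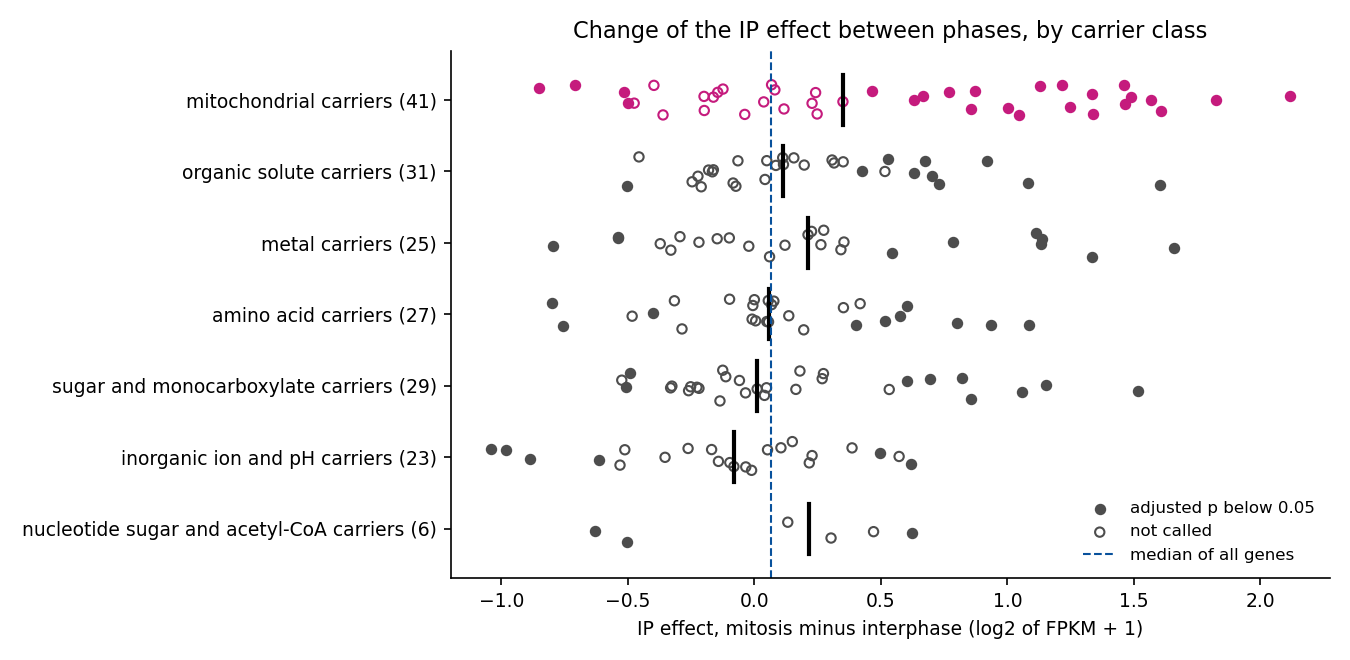
Difference of the IP effect between phases (mitosis minus interphase, log2 of FPKM + 1) for each of the 182 carriers by class of cargo, with filled points called at an adjusted p below 0.05, open points not called, a black bar at the class median and a dashed line at the median of all genes. Points are spread vertically at random within a class; mitochondrial carriers have 20 filled points on the right and 4 on the left.

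Among metal carriers, the SLC30A zinc carriers were all higher in the interphase IP, whereas the SLC39A zinc carriers were divided. The SLC30A family lowers cytosolic zinc by moving it into organelles or out of the cell, and all 6 of its measured members were higher in the interphase IP (median log2 difference 1.48), as were 5 of 6 in the mitotic IP (median 1.17). Of all genes 37.6% and 32.8% were higher, and of all genes below 45% G and C, where these 6 lie, 71.1% and 57.5%. SLC30A1, the zinc exporter of the plasma membrane, went from 18.6 and 21.2 FPKM to 57.2 and 62.7 FPKM with the IP in interphase (1.54 ± 0.13, limma adjusted p = 8.14e-06), and from 10.6 and 12.7 FPKM to 26.4 and 32.2 FPKM in mitosis (1.25 ± 0.13, limma adjusted p = 5.63e-05). SLC30A9 had 47.6 and 53.8 FPKM and 114 and 163 FPKM in interphase without and with IP (1.41 ± 0.17, limma adjusted p = 5.37e-05). Both IP replicates of both genes exceeded both replicates without IP in each phase, although the IP replicates of SLC30A9 were far apart in interphase. The other 4 members were SLC30A4, SLC30A5, SLC30A6 and SLC30A7, of which SLC30A5, with 0.53 ± 0.14 in interphase and 0.20 ± 0.14 in mitosis, had the smallest differences (limma adjusted p = 0.0085 and 0.259). SLC30A5, SLC30A6 and SLC30A7 were chosen after their values were seen, and the interphase call of SLC30A5 ended without interphase replicate 1 without IP (limma adjusted p = 0.0688) or interphase IP replicate 2 (0.059). SLC30A5 was called lower in the interphase IP with length and GC trends removed, at -0.45 (limma adjusted p = 0.015).

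The 6 SLC30A genes also have low GC content, from 36.2% to 40%. With length and GC trends removed the interphase IP raised 2 and lowered 1 (median 0.17), against 26.3% and 33.8% of all annotated genes. In that fit the mitotic IP raised 5 and lowered 1 (median 0.53), against 32.0% and 29.8%. The SLC39A family brings zinc into the cytosol, and the interphase IP raised 5 of its 11 members and lowered 6 (median -0.35). The mitotic IP raised 5 and lowered 2 (median 0.19), and 6 had a larger IP difference in mitosis with 0 smaller. Of all genes 37.6% were higher and 37% lower in interphase, 32.8% and 31.7% in mitosis, and 27.2% had a larger and 19.9% a smaller difference. The 5 higher in interphase hold 37.6% to 47.7% G and C and the 6 lower hold 49.9% to 62.8%. SLC39A14, which takes up zinc and iron, was among the higher ones, with 41.9 and 42.8 FPKM in interphase and 61.7 and 65.96 FPKM in its IP (0.58 ± 0.10, limma adjusted p = 0.000556), and 48.9 and 53.2 against 90.8 and 93.7 FPKM in mitosis (0.84 ± 0.10, limma adjusted p = 8.91e-05). Once length and GC trends were removed, the 11 SLC39A genes gave 2 higher and 4 lower calls in interphase, against 26.3% and 33.8% of all annotated genes. They gave 7 larger and 0 smaller interactions, against 27.2% and 16.5%. The interphase calls of SLC30A9 and SLC39A14 then ended, at 0.19 (limma adjusted p = 0.274) and 0.19 (limma adjusted p = 0.107).

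The heavy and light chains of the amino acid exchangers did not move as a unit. SLC3A2, the shared heavy chain CD98, went from 43.1 and 34 FPKM to 13.6 and 10.3 FPKM with the IP in interphase (-1.61 ± 0.15, limma adjusted p = 1.44e-05), and its light chain partner SLC7A5 from 34.1 and 30 FPKM to 10.5 and 8.17 FPKM (-1.68 ± 0.27, limma adjusted p = 0.000395). SLC7A11, another partner of SLC3A2, went from 10.5 and 8.69 FPKM to 41.5 and 42.4 FPKM. The IP thus lay below no IP for SLC3A2 and SLC7A5 and above it for SLC7A11, without overlap. Their longest transcripts hold 57.4%, 61.1% and 35.4% G and C, in that order. In mitosis the log2 differences were -0.68 ± 0.15 (limma adjusted p = 0.00413) for SLC3A2, -1.69 for SLC7A5 and 2.22 for SLC7A11. The glutamine importer SLC1A5 was lower in the interphase IP as well (-1.43 ± 0.11, limma adjusted p = 3.84e-06), and less so in mitosis, at -0.34 ± 0.11 (limma adjusted p = 0.0219), and the interaction was 1.09 ± 0.15 (limma adjusted p = 0.000617). With length and GC trends removed its mitotic difference was 0.25 (limma adjusted p = 0.055). The mitotic call of SLC1A5 also ended without mitosis replicate 1 or 2 without IP or mitotic IP replicate 2 (limma adjusted p from 0.0625 to 0.143), and with median centring, at -0.24 (limma adjusted p = 0.0782). Among the potassium and chloride carriers, SLC12A2 was higher in both IPs, at 0.87 ± 0.17 and 0.70 ± 0.17 (limma adjusted p = 0.00124 and 0.00544), and SLC12A4 lower, at -1.45 ± 0.17 and -1.07 ± 0.17 (limma adjusted p = 5.39e-05 and 0.000558). SLC2A1 was lower in both IPs, at -1.12 ± 0.10 (limma adjusted p = 1.18e-05) and -1.15 ± 0.10 (limma adjusted p = 2.38e-05). In the fit without length and GC trends, the interphase difference of SLC12A2 became -0.28 (limma adjusted p = 0.139) and its mitotic one 0.16 (limma adjusted p = 0.373), the mitotic one of SLC3A2 -0.15 (limma adjusted p = 0.388), and the calls of SLC2A1 remained.

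Without IP, mitotic and interphase cells differed in fewer carriers than libraries with and without IP. Of the 41 SLC25A genes 11 were higher and 8 lower in mitosis (median 0.04), and of the 141 others 27 were higher and 34 lower (median -0.02), against 51.7% of all genes called, 26.2% higher and 25.5% lower (median 0.00). With each library centred on its median the SLC25A counts were 7 higher and 11 lower, and those of all 182 carriers went from 38 higher and 42 lower to 30 and 53. In that setting 22.3% of all genes were higher and 30.7% lower, so the whole gene table shifted the same way. The SLC25A counts also depended on single libraries, with 4 higher without interphase replicate 1, 7 without interphase replicate 2, 5 without mitosis replicate 1 and 7 without mitosis replicate 2, and with 5, 3, 5 and 4 lower in the same order.

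SLC38A2, the amino acid carrier that cells raise when amino acids run short, showed the largest drop in FPKM, from 196 and 180.4 FPKM in interphase to 57.8 and 54.9 FPKM in mitosis (-1.72 ± 0.12, limma adjusted p = 1.88e-05). The monocarboxylate carrier SLC16A4 dropped further on the log2 scale, from 15.4 and 15.7 FPKM to 3.14 and 3.95 FPKM (-1.87 ± 0.13, limma adjusted p = 1.44e-05). Both mitotic replicates of these 2 genes, named for their large called differences, were far below both interphase replicates. The glucose carrier SLC2A12 (-1.43 ± 0.20), the creatine carrier SLC6A8 (-1.30 ± 0.11) and the fatty acid carrier SLC27A1 (-1.25 ± 0.12) were lower too, with adjusted p of 0.000567, 5.70e-05 and 7.06e-05 by limma. In the SLC2A glucose and polyol family 6 of 9 members were lower in mitosis and 0 higher (median -0.39), against 25.5% of all genes lower and 26.2% higher. The other settings gave 4 to 7 lower, with 4 without interphase replicate 2 without IP, and 1 was higher with length and GC trends removed. With a pseudocount of 0.1 the median of the 9 was -1.14. SLC2A1, the main glucose carrier, was not called, at -0.23 ± 0.10 (limma adjusted p = 0.0949). SLC25A1 fell from 79.3 and 70.4 FPKM to 35.2 and 28.4 FPKM (-1.22 ± 0.16, limma adjusted p = 0.000373), SLC25A6 was at -0.64 ± 0.13 (limma adjusted p = 0.0031) and SLC25A23 at -0.55 ± 0.13 (limma adjusted p = 0.00837). SLC25A3 was at -0.48 ± 0.17 (limma adjusted p = 0.0435), a call that ended without any of the 4 libraries without IP (limma adjusted p from 0.108 to 0.221). The SLC25A6 value became -0.17 (limma adjusted p = 0.343) with length and GC trends removed, and the SLC25A23 call ended without interphase replicate 1 or mitosis replicate 2 (limma adjusted p up to 0.0628).

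Of the 6 SLC4A bicarbonate carriers and their relatives, 2 were higher in mitosis, against 26.2% of all genes. SLC4A8, a sodium-driven chloride-bicarbonate exchanger, rose from 2.63 and 2.47 FPKM in interphase to 8.48 and 9.35 FPKM in mitosis (1.48 ± 0.12, limma adjusted p = 3.76e-05), and SLC4A7 from 18.9 and 19.4 FPKM to 41.9 and 41.3 FPKM (1.08 ± 0.10, limma adjusted p = 6.09e-05). The other 4 SLC4A genes were not called. The potassium-chloride cotransporter SLC12A4 (1.05 ± 0.17), the arginine and lysine importer SLC7A1 (0.96 ± 0.11) and the zinc importer SLC39A10 (0.91 ± 0.09) were also higher, with adjusted p of 0.00114, 0.000174 and 0.000109 by limma. SLC12A4 shares its interval with LCAT, and SLC39A10 with DNAH7. In the mitochondrial family SLC25A13 rose from 8.03 and 7.55 FPKM to 18.6 and 17.2 FPKM (1.10 ± 0.09, limma adjusted p = 4.83e-05), and the pyrimidine nucleotide carrier SLC25A33 from 4.86 and 4.52 FPKM to 7.43 and 7.69 FPKM (0.59 ± 0.11, limma adjusted p = 0.00226). SLC25A32, which carries folate or FAD, was at 0.58 ± 0.18 (limma adjusted p = 0.0257), shares its interval with DCAF13, and lost its call without interphase replicate 1 or either mitotic replicate. Mitotic replicates exceeded interphase replicates in all of these genes, which follows largely from naming genes with the largest called differences.

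**Figure D5:**
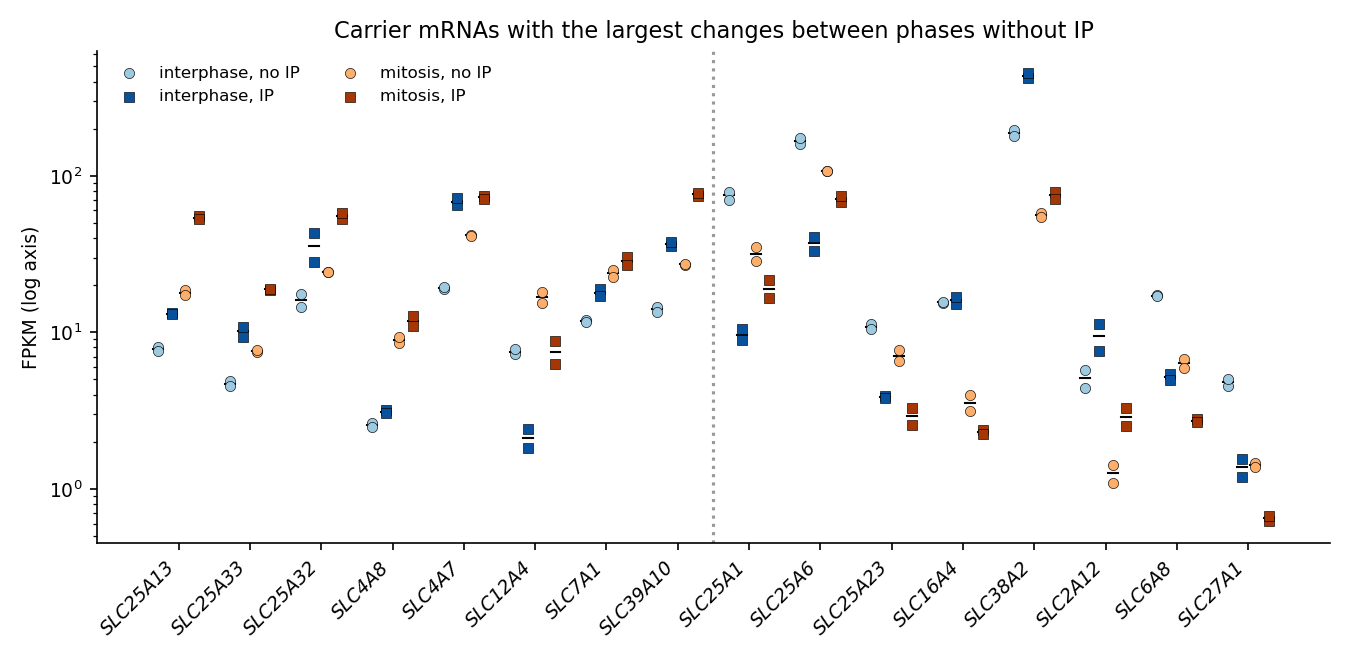
FPKM on a log axis of the carriers with the largest changes between mitosis and interphase without IP, higher in mitosis left of the dotted line and lower right of it; circles are libraries without IP, squares IP libraries, blue interphase, orange and brown mitosis, and black bars group means of 2. Circles of SLC4A8 and SLC25A13 rise from blue to orange, and those of SLC38A2 and SLC16A4 fall.

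Genes that work with the carriers moved in both directions. Of 16 measured TIMM and TOMM genes, listed as import and outer membrane partners, the interphase IP raised 4 and lowered 11 (median -1.42). The mitotic IP raised 4 and lowered 10 (median -0.54). A larger IP difference in mitosis was called for 10 and a smaller one for 3 (median 0.79), against 27.2% and 19.9% of all genes. The part of GC content or length in these counts was not tested. TOMM40, the pore of the outer membrane translocase, had 20.9 and 23.5 FPKM in interphase cells without IP, 3.81 and 3.59 FPKM in its IP, 34.3 and 35.6 FPKM in mitosis without IP and 25.5 and 29.8 FPKM in its IP (interaction 1.97 ± 0.16, limma adjusted p = 6.83e-05). The 4 SLC25 relatives under other symbols, UCP2, UCP3, MTCH1 and MTCH2, had 0 higher and 2 lower in the interphase IP and 2 higher and 2 lower in mitosis. Of 7 chaperones and scaffolds of plasma membrane carriers, 3 were higher and 3 lower in interphase and 3 higher and 4 lower in mitosis. Basigin (BSG), the chaperone of SLC16A1 and SLC16A3, was lower in the interphase IP, and embigin (EMB), its relative, was higher, at 1.92 ± 0.14 (limma adjusted p = 2.64e-06). Of 4 sodium-potassium pump subunits, 0 were higher and 2 lower in interphase, and 0 higher and 1 lower in mitosis. Of 10 carriers that bear other symbols, the interphase IP raised 3 and lowered 4, and the mitotic IP raised 3 and lowered 2. Each of these counts is to be read against 37.6% of all genes higher and 37% lower in interphase, and 32.8% and 31.7% in mitosis.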

How the data were processed

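RNA was sequenced from hTERT-RPE1 cells in 4 groups of 2 libraries, grouped by their titles. Per the file headers, the gene table holds FPKM for each library, and ratio columns that the authors deposited equal quotients of the FPKM values for all 13471 genes within 0.1 percent; these ratios were not tested. TopHat and StringTie are named, without roles, per the submitters' processing notes, with hg38 as the build, and the handling of reads that match several places is not given in the sources used here. The table gives no counts, so depth is known only in relative terms and limits precision for low genes. From the deposited FPKM, log2(FPKM + 1) was fitted with limma 3.58.1 in R 4.3.3, with a mean-variance trend, all 8 libraries and 4 residual degrees of freedom, and p-values were adjusted by Benjamini-Hochberg over 13471 genes, with calls below 0.05. The procedure was tested on simulated data.

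Lengths, GC content, positions and sequences came from GENCODE release 29, matched by symbol for 12678 genes and by older symbol for 441, with 352 unmatched. Members and gene lists were chosen with earlier results of these data known. Named genes were the 3 SLC25A and 5 other carriers with the largest log2 difference in each direction among genes of each comparison that were called, had 1 sign in both same-numbered pairs and averaged at least 2 FPKM, the 5 of each set with the highest level, and a list of carriers of known roles; 1 gene that this rule names is not reported here. Alternatives were a pseudocount of 0.1, a mean of at least 1 FPKM, quantile normalization, median centring, removal of each library's length and GC trends, a replicate block, leaving out each library, and leaving out carriers that share an interval. A table of long noncoding RNA was not used.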

Additional observations from a re-analysis of the deposited data

Results flagged for a closer look

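The test of the difference between the IP effects of mitosis and interphase called 20 SLC25A genes with a larger effect in mitosis and 4 with a smaller one, and 33 and 15 other carriers. These are 48.8% and 9.76% of SLC25A and 23.4% and 10.6% of the others, against 27.2% and 19.9% of all genes. The values are log2 differences of the IP effect, mitosis minus interphase, with 2 libraries in each group, and each was called by limma.

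Among the mitochondrial carriers the difference was positive for SLC25A1 (2.12), SLC25A5 (1.83), SLC25A11 (1.60), SLC25A6 (1.57), SLC25A10 (1.47), SLC25A39 (1.46), SLC25A4 (1.33), SLC25A3 (1.13), SLC25A12 (0.87) and SLC25A13 (0.85). It was negative for SLC25A24 (-0.85), SLC25A30 (-0.71) and SLC25A36 (-0.52).

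Among the other carriers it was positive for SLC39A7 (1.66), SLC52A2 (1.60), SLC16A3 (1.52), SLC39A3 (1.33), SLC50A1 (1.15), SLC1A5 (1.09), SLC3A2 (0.94), SLC27A1 (0.73), SLC29A1 (0.70), SLC10A3 (0.67) and SLC6A8 (0.57). It was negative for SLC4A4 (-1.04), SLC4A7 (-0.98), SLC38A2 (-0.80), SLC40A1 (-0.80), SLC36A4 (-0.76), SLC30A4 (-0.54), SLC16A7 (-0.51) and SLC16A4 (-0.49).

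Several of these calls ended in other fits with limma. Without single libraries this held for SLC16A4 (any of 6 of the 8 libraries, adjusted p up to 0.162), SLC25A36 (6, up to 0.17), SLC10A3 (5, up to 0.0954), SLC29A1 (4, up to 0.0989), SLC30A4 (4, up to 0.0819), SLC6A8 (3, up to 0.0684) and SLC16A7 (3, up to 0.059). With quantile normalization the calls of SLC16A4 (adjusted p = 0.161) and SLC25A3 (0.141) ended, and with a pseudocount of 0.1 those of SLC27A1 (0.0685) and SLC25A36 (0.0504). The difference was no longer called for SLC25A30, SLC25A36, SLC3A2, SLC4A4, SLC4A7, SLC6A8, SLC10A3, SLC16A4, SLC16A7, SLC29A1, SLC30A4, SLC36A4 and SLC38A2 when length and GC trends were removed.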

How the results depend on the processing

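Of 164 gene results called for 58 named carriers, all kept direction and call with a mean of at least 1 FPKM and with the replicate block, 162 with median centring and with a pseudocount of 0.1, 157 with quantile normalization, and 113 with length and GC trends removed, where 36 lost the call and 15 changed sign. With each of the 8 libraries left out in turn, the call was kept in 1225 checks of a result and a library and ended in 87, which concern 29 gene results.

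With length and GC trends removed, 24 other carriers instead of 52 were higher in the interphase IP, 7 SLC25A genes instead of 11 were lower in the mitotic IP, and 6 other carriers instead of 15 had a smaller IP difference in mitosis. Over all genes the matching shares went from 37.6% to 26.3%, from 31.7% to 29.8% and from 19.9% to 16.5%. The interphase IP difference changed sign for SLC25A24 (-0.318), SLC25A30 (-0.205), SLC50A1 (0.034), SLC4A4 (-0.000), SLC2A12 (-0.170), SLC25A46 (-0.111) and SLC12A2 (-0.277). In mitosis it did for SLC25A1 (0.070), SLC38A2 (-0.218), SLC25A6 (0.132) and SLC1A5 (0.250), and the difference between phases did for SLC25A36 (0.087), SLC16A7 (0.301), SLC30A4 (0.103) and SLC10A3 (-0.040). The cause was not tested.

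In mitosis without IP, 7 SLC25A genes instead of 11 were higher with quantile normalization, and 7 with median centring. Of all genes 25.9% and 22.3% were higher in these fits, against 26.2% in the main fit. Leaving out 1 library gave 4 to 12 SLC25A genes higher and 3 to 8 lower in that comparison, and 2 to 5 SLC25A and 8 to 14 other carriers with a smaller IP difference in mitosis.

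Replicate numbers are not stated to mark shared cultures, and same-numbered libraries deviated together with correlations of 0.0883 to 0.528. With the replicate block the counts higher and lower were 14 and 17 SLC25A and 52 and 57 other carriers in the interphase IP, 17 and 11 and 47 and 48 in the mitotic IP, 20 and 5 and 34 and 17 for the difference, and 13 and 9 and 36 and 36 in mitosis without IP. Over all 13471 genes they were 5217 and 5157, 4619 and 4480, 3988 and 2925, and 3825 and 3752, in the same order.

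Depth limits carriers below 1 FPKM, whose differences the pseudocount shrinks.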
